A study of Oryza sativa with 12 samples.

Results

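The genes described here make diterpenoid phytoalexins, the antimicrobial compounds that rice leaves accumulate when attacked or stressed. They were found by name, not by a level: a probe set counted when the array annotation tied it to exactly 1 gene whose RefSeq symbol or synonym is CPS2, CPS4, KSL with a number, CYP99A2 or CYP99A3. RefSeq held 11 such genes, and 8 of them had a probe set on the array, out of 17905 genes represented. These 8 were CPS4, CPS2, KSL4, KSL5, KSL7, KSL10, CYP99A2 and CYP99A3. In RefSeq, CPS4 (LOC4335090), CYP99A3 (LOC4335091), KSL4 (LOC4335094) and CYP99A2 (LOC4335096) lie on chromosome 4, KSL7 (LOC4329724), CPS2 (LOC9266189) and KSL5 (LOC4329728) on chromosome 2, and KSL10 (LOC4352248) on chromosome 12. KSL2, KSL3 and KSL6 had no probe set tied to them by name. KSL7 had 2 probe sets, of which the brighter stood for it, and the other 7 genes had 1 each.

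Labdane-related phytoalexins start from geranylgeranyl diphosphate, the plastid precursor that also feeds gibberellins. A copalyl diphosphate synthase (CPS) first folds it into the ent or the syn form of copalyl diphosphate, a kaurene synthase-like enzyme (KSL) turns that into a hydrocarbon skeleton, and cytochrome P450 enzymes add oxygen. The syn branch leads to momilactones, and its genes form a cluster on chromosome 4. The ent branch leads to phytocassanes and oryzalexins, and most of the phytocassane genes form a cluster on chromosome 2.

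Flag leaves, the uppermost leaf below the panicle, were taken from greenhouse rice at 10 weeks of age, before flowering, and 12 Affymetrix rice arrays were hybridised with 1 RNA sample each. The labels give 4 groups of 3 biological replicates: wild type kept watered (WT_watered), wild type after 3 days without water (WT_stressed), and PSARK::IPT plants under the same conditions (IPT_watered and IPT_stressed). PSARK is a promoter of a senescence-associated receptor kinase, and IPT is isopentenyltransferase, which makes cytokinin, so the construct is active in ageing or stressed leaves rather than throughout the plant. The labels give no cultivar, number of transgenic lines or vector control. The question of the design is whether withholding water changes gene expression, and whether it does so differently in the PSARK::IPT plants.

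Values are the authors' log2 RMA values, and a difference of 1 is a doubling of signal. Probe sets differ in their response, so levels are compared between arrays and not between genes. The background level of a group was the 95th percentile of its means over 106 probe sets for foreign sequences, which gave 3.62 and 4.10 for wild type (watered, then stressed) and 3.15 and 3.34 for PSARK::IPT. A fold given as at least sets the mean of the higher group against this level and leaves out the spread between arrays. In leaf RNA, fewer cells expressing a gene and less RNA per cell cannot be told apart.

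The labels themselves were in doubt. A reporter probe set for a foreign sequence read between 8.71 and 10.4 on all 6 arrays labelled stressed, between 1.99 and 2.35 on 5 arrays labelled watered and 6.03 on WT_watered replicate 3, so its signal split the arrays by their water label, whereas the genotype label made no such split. If that sequence belongs to the transformation construct, which the labels do not say, its signal goes against the genotype labels. Every direction below therefore holds for groups as labelled. The labelled genotypes also differed in an RNA quality measure: the 3-prime GAPDH probe set exceeded the 5-prime one by 4.86 to 7.30 on arrays labelled wild type and by 3.34 to 4.29 on those labelled PSARK::IPT. The mean of the spiked-in control probe sets split the same way. It ran from 11.1 to 12.2 on arrays labelled wild type and from 8.77 to 9.26 on those labelled PSARK::IPT. Genotype differences cannot be told apart from these differences between arrays. WT_stressed replicate 3 stood apart from its group, with correlations of 0.952 and 0.946 to the other arrays, which correlated at 0.975 with each other. IPT_stressed replicate 2 correlated at 0.985 and 0.988 with its group, against 0.994 between the other pair. Of 4 leaf chloroplast markers 3 lay above background in every group, with a summed level of 14.5 to 15.1 on the log2 scale. Of 11 panicle and floral organ markers 3 did in every group, and their summed level ran from 6.80 to 7.24 on arrays labelled wild type and from 7.53 to 7.81 on those labelled PSARK::IPT. Of 6 anther markers 3 lay above background in IPT_watered and 1 in each other group. Their summed level ran from 5.84 to 6.15 on arrays labelled wild type and was lower, 5.63 to 5.83, on those labelled PSARK::IPT. The root marker found lay below background in both wild-type groups and above it in both PSARK::IPT groups. Its means were 3.61 and 3.85 in wild type (watered, then stressed) and 3.74 and 3.50 in PSARK::IPT. The background level was lower in PSARK::IPT, so these counts do not compare signal between genotypes.

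The genes fell into 3 sets by level. KSL4 and KSL10 lay at background in all 4 groups. CPS4 and KSL7 lay at background in both watered groups and in WT_stressed, and above it in IPT_stressed alone. That statement depends on the level for KSL7 in WT_stressed: its mean of 3.63 lies above the level of 3.03 that the bacterial controls give without the reporters, some of which read high on stressed arrays, and CPS4, at 3.02, then lies at the level. CPS2 and CYP99A3 lay above background in all 4 groups, KSL5 in all but WT_stressed, and CYP99A2 in all but WT_watered. The CYP99A2 mean was 3.55 in WT_watered and 3.46 in IPT_watered, so only the levels of 3.62 and 3.15 set these 2 groups apart. The bacterial controls alone gave a level of 2.94 in WT_watered, below its mean. The number of arrays above their group's background level was 12 of 12 for CPS2, 11 for CYP99A3, 10 for KSL5, 9 for CYP99A2, 4 for CPS4, 3 for KSL7 and 0 for KSL4 and KSL10.

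**Figure D1:**
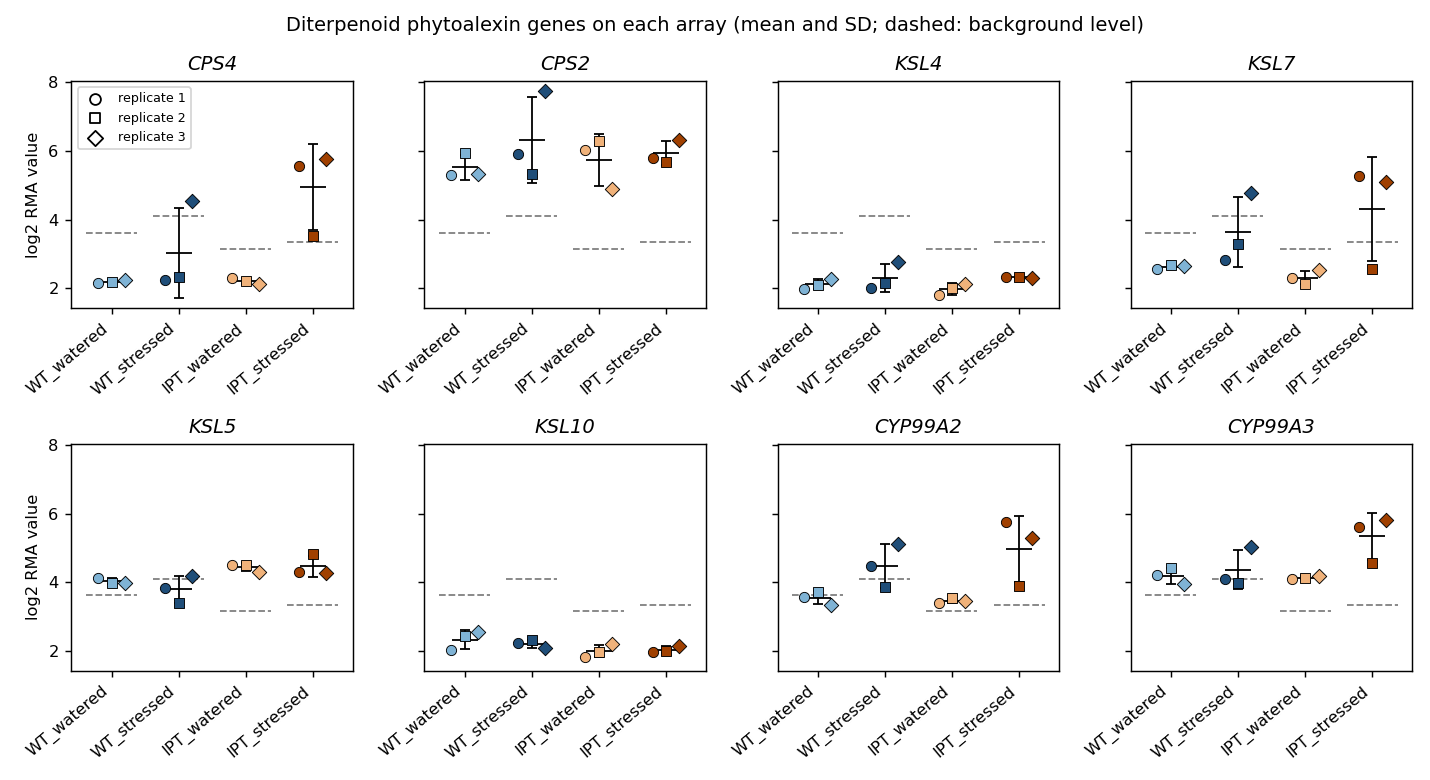
Log2 RMA value of each of the 8 genes on each array, by labelled group, with the mean and SD of 3 arrays and the background level of the group as a dashed line. CPS4, KSL7, CYP99A2 and CYP99A3 are highest on replicate 3 of WT_stressed and replicates 1 and 3 of IPT_stressed, and KSL4 and KSL10 stay below the dashed lines on all 12 arrays.

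CPS4 makes syn-copalyl diphosphate and so opens the momilactone branch. Its log2 values were 2.14, 2.18 and 2.23 in WT_watered, 2.22, 2.32 and 4.53 in WT_stressed, 2.30, 2.19 and 2.13 in IPT_watered, and 5.57, 3.52 and 5.76 in IPT_stressed. The 6 watered arrays lay between 2.13 and 2.30, all 3 IPT_stressed arrays lay above every IPT_watered array, and in WT_stressed only replicate 3 stood clear of the watered level. The group means were 2.18 ± 0.04 (SD, n = 3), 3.02 ± 1.30, 2.21 ± 0.08 and 4.95 ± 1.24 in that order. CPS4 was higher in IPT_stressed than in IPT_watered by 2.74 (SE 0.61, 95% interval 1.41 to 4.08), at least 3.48-fold against the background level, with an adjusted p of 0.129 from limma. In wild type the difference was 0.84 (SE 0.61), with both groups at background.

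CPS2 makes ent-copalyl diphosphate for the phytocassane branch. It read 5.29, 5.94 and 5.32 in WT_watered, 5.90, 5.34 and 7.74 in WT_stressed, 6.02, 6.30 and 4.88 in IPT_watered, and 5.78, 5.68 and 6.33 in IPT_stressed. The group means were 5.52 ± 0.37 (SD, n = 3), 6.33 ± 1.25, 5.73 ± 0.75 and 5.93 ± 0.35. The groups overlapped in both genotypes, and replicate 3 of WT_stressed was the highest of the 12 arrays. The stress effect was 0.81 (SE 0.53, limma adjusted p = 0.407) in wild type and 0.20 (SE 0.53, adjusted p = 0.999) in PSARK::IPT. Without WT_stressed replicate 3 the wild-type effect was 0.10.

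KSL7 makes ent-cassadiene, the phytocassane skeleton. Its values were 2.55, 2.69 and 2.65 in WT_watered, 2.82, 3.29 and 4.79 in WT_stressed, 2.29, 2.12 and 2.52 in IPT_watered, and 5.28, 2.55 and 5.09 in IPT_stressed. Replicates 1 and 3 of IPT_stressed were far above the watered arrays, whereas replicate 2, at 2.55, was level with the highest IPT_watered array, at 2.52, and below the highest WT_watered array, at 2.69. The stress effect in PSARK::IPT was 2.0 (SE 0.63), at least 2.23-fold, with a limma adjusted p of 0.331. The group means were 2.63 ± 0.07 (SD, n = 3), 3.63 ± 1.03, 2.31 ± 0.20 and 4.31 ± 1.53 in the same order. In wild type the effect was 1.0 (SE 0.63), with both groups at background. The dimmer KSL7 probe set lay at background in every group, with effects of 0.50 in wild type and -0.17 in PSARK::IPT, so the 2 probe sets disagreed in direction in PSARK::IPT.

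KSL4, which RefSeq lists as DTS2, makes syn-pimaradiene, the momilactone skeleton, and its probe set lay at background in every group. It read 1.97, 2.09 and 2.27 in WT_watered, 1.99, 2.14 and 2.76 in WT_stressed, 1.80, 2.01 and 2.13 in IPT_watered, and 2.34, 2.31 and 2.30 in IPT_stressed. The arrays of IPT_stressed and IPT_watered did not overlap, but the difference of 0.33 lay wholly under the background level.

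KSL5, listed in RefSeq as KS6, is a cyclase of the chromosome 2 cluster. It read 4.13, 3.97 and 3.99 in WT_watered, 3.82, 3.38 and 4.17 in WT_stressed, 4.50, 4.50 and 4.31 in IPT_watered, and 4.31, 4.82 and 4.27 in IPT_stressed. The watered and stressed arrays overlapped in both genotypes. The stress effect was -0.24 (SE 0.20, limma adjusted p = 0.521) in wild type and 0.03 (SE 0.20) in PSARK::IPT. KSL10, whose product leads to oryzalexins, read between 1.81 and 2.54 on all 12 arrays and gave no measurable level.

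CYP99A2 and CYP99A3 are cytochrome P450 enzymes that oxidise syn-pimaradiene on the way to momilactones. CYP99A2 read 3.58, 3.72 and 3.34 in WT_watered, 4.46, 3.85 and 5.13 in WT_stressed, 3.40, 3.53 and 3.46 in IPT_watered, and 5.74, 3.89 and 5.29 in IPT_stressed. All 6 stressed arrays lay above all 6 watered arrays, which 0.259% of the 57194 probe sets tested also showed, and 0.129% showed the reverse. The group means were 3.55 ± 0.19 (SD, n = 3), 4.48 ± 0.64, 3.46 ± 0.06 and 4.97 ± 0.96. The stress effect was 0.93 (SE 0.41), at least 1.82-fold, in wild type and 1.52 (SE 0.41), or 2.86-fold, in PSARK::IPT, with limma adjusted p-values of 0.228 and 0.220.

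CYP99A3 read 4.22, 4.41 and 3.94 in WT_watered, 4.10, 3.98 and 5.03 in WT_stressed, 4.10, 4.13 and 4.17 in IPT_watered, and 5.62, 4.56 and 5.82 in IPT_stressed. In PSARK::IPT the stressed arrays lay above the watered ones, and in wild type only replicate 3 of WT_stressed did. The group means were 4.19 ± 0.24 (SD, n = 3), 4.37 ± 0.57, 4.14 ± 0.04 and 5.33 ± 0.68. The stress effect was 1.20 (SE 0.32), or 2.29-fold, in PSARK::IPT (limma adjusted p = 0.225) and 0.18 (SE 0.32, adjusted p = 0.785) in wild type. The CYP99A genes are close paralogues, and whether their probe sets respond to each other's RNA was not tested.

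In wild type, 0 of the 8 genes passed an adjusted p of 0.05 with limma, where 0.420% of all probe sets did. CYP99A2 alone had an unadjusted p under 0.05 (0.0403), a level that 20.1% of probe sets reached. The arrays did not overlap for 2 of the 8, CYP99A2 and KSL7, both higher under stress, as for 10.6% of probe sets, and KSL7 was at background. No gene of the 8 was lower on every stressed array, as 7.52% of probe sets were. The median stress effect was 0.50 over the 8 genes, -0.18 over all 17905 genes and 0.04 over all probe sets. Of the 8 genes 6 were higher under stress, as were 31.0% of all genes and 55.2% of all probe sets. Both groups lay at background for 4 of the 8.

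In PSARK::IPT, 0 of 8 passed, where 0.177% of all probe sets did. CPS4, KSL7, CYP99A2 and CYP99A3 had an unadjusted limma p under 0.05, which 8.02% of probe sets had. These 4 and KSL4 were higher on every stressed array than on any watered array, a separation that 9.01% of probe sets showed, while 0 of the 8 and 11.3% of probe sets were lower on every stressed array. All 8 estimates were above 0, with a median of 0.77 against 0.01 over all genes and -0.03 over all probe sets, of which 51.1% and 42.6% were above 0. Both groups lay at background for 2 of the 8, KSL4 and KSL10. The estimates for KSL5 and KSL10 were only 0.03 and 0.04. The genes share a pathway and neighbouring positions, so they are not independent of each other.

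**Figure D2:**
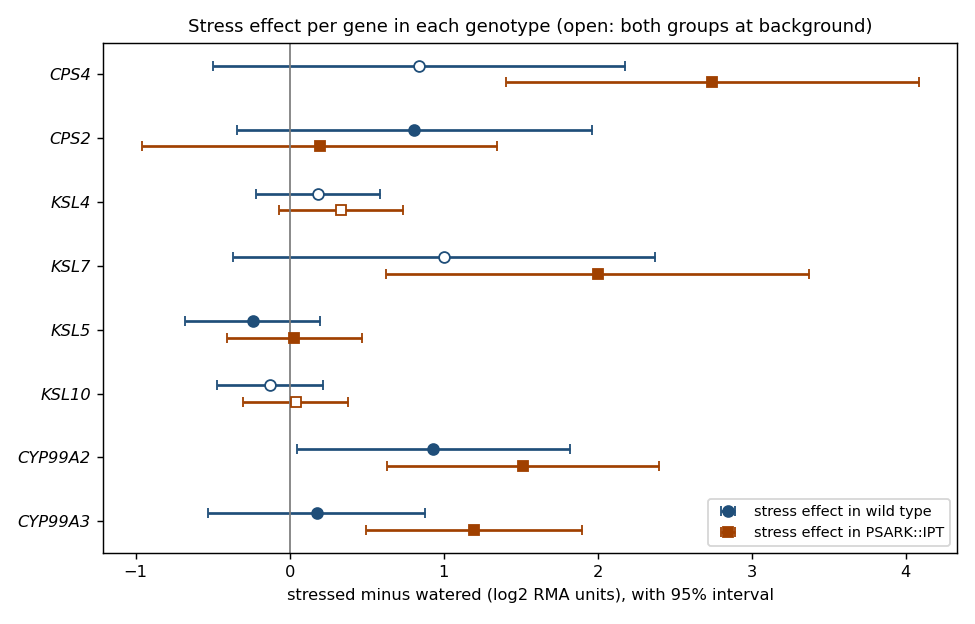
Stress effect of each gene, stressed minus watered in log2 RMA units, with its 95% interval, for each labelled genotype. Open symbols mark genes with both groups at background. The largest estimate is CPS4 in PSARK::IPT at 2.74, and no effect passed the adjusted threshold.

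The stress effects of the labelled genotypes were compared directly. The difference, PSARK::IPT minus wild type, was 1.90 for CPS4 (SE 0.87, 95% interval 0.01 to 3.80, limma adjusted p = 0.348) and 1.02 for CYP99A3 (SE 0.46, adjusted p = 0.342). For CPS2 it was -0.61 (SE 0.75) and for CYP99A2 0.58 (SE 0.57). None of the 8 passed the threshold, as for 0 of all probe sets, and 2 of 8 had an unadjusted p under 0.05, against 14.3% of probe sets. A difference between genotypes in the response of these genes was therefore not detected with 3 arrays a group.

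Over both genotypes together the water effect was 1.22 for CYP99A2 (SE 0.29, limma adjusted p = 0.0973), 1.79 for CPS4 (SE 0.43, adjusted p = 0.105), 1.5 for KSL7 (SE 0.44, adjusted p = 0.168) and 0.69 for CYP99A3 (SE 0.23, adjusted p = 0.212). Here too 0 of 8 passed, against 0.409% of probe sets, while 4 of 8 had an unadjusted p under 0.05, against 13.8%. The other 4 genes had water effects between -0.10 and 0.50.

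The SD between replicates exceeded the median SD of all probe sets for 7 of the 8 genes in WT_stressed, all but KSL10, and for 6 of the 8 in IPT_stressed, all but KSL4 and KSL10. The SD over the IPT_stressed arrays was 1.53 for KSL7, and 0.119% of all probe sets had an SD at least as large in that group. The corresponding share was 0.283% for CPS4, 0.664% for CYP99A2 and 1.78% for CYP99A3. In WT_stressed it was 0.918% for CPS4, 1.04% for CPS2 and 2.0% for KSL7. The high arrays were the same for 4 genes: CPS4, KSL7, CYP99A2 and CYP99A3 each had their 3 highest values on WT_stressed replicate 3 and IPT_stressed replicates 1 and 3. Of all probe sets 1.29% had those 3 arrays highest, and of all genes 2.59%. These arrays were picked after the values were seen, so the shares are a description.

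The calls in PSARK::IPT depended in part on IPT_stressed replicate 2. That array was the lowest of its group for CPS4, KSL7, CYP99A2 and CYP99A3. Leaving it out therefore raised the group mean and cut the spread of these genes, and left 2 arrays in the group. Without replicate 2, 4 of the 8 genes passed with limma, where 1.43% of all probe sets did. CPS4 was then higher under stress by 3.46 (adjusted p = 0.00746), KSL7 by 2.88 (adjusted p = 0.00663), CYP99A2 by 2.06 (adjusted p = 0.00592) and CYP99A3 by 1.58 (adjusted p = 0.0144). The same 4 genes passed in the pooled water effect without that array, against 1.85% of probe sets. Without WT_stressed replicate 3, CPS4 alone passed, against 0.386% of probe sets. That array does not enter the PSARK::IPT difference itself but adds to the shared spread. With all arrays kept but weighted by limma for their quality, these 4 genes and KSL4 passed, against 8.69% of probe sets, and KSL4 was at background. The stress effect of CPS4 in PSARK::IPT ran from 2.34 to 3.46 and that of CYP99A2 from 1.13 to 2.06 as single arrays were left out. The largest limma adjusted p over these omissions was 0.667 for CPS4, 0.921 for CYP99A2, 0.973 for CYP99A3 and 0.99998 for KSL7.

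**Figure D3:**
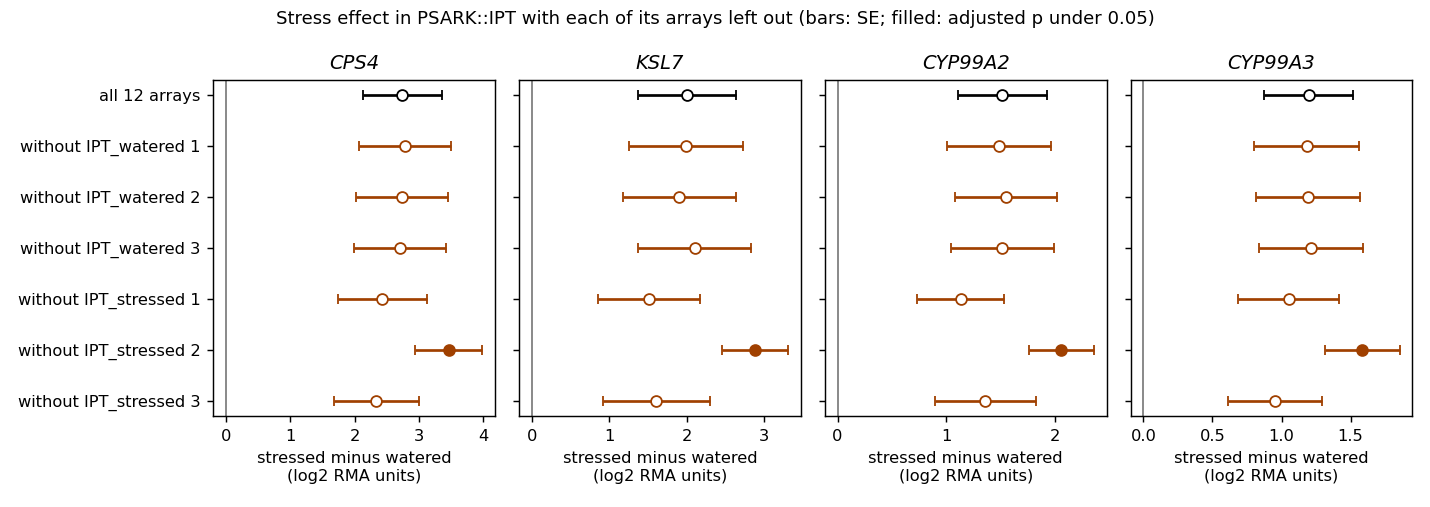
Stress effect in PSARK::IPT, stressed minus watered in log2 RMA units with its SE, for CPS4, KSL7, CYP99A2 and CYP99A3, over all 12 arrays and with each PSARK::IPT array left out. Filled points passed the adjusted threshold, which happened without IPT_stressed replicate 2 in all 4 panels.

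The GAPDH difference was 6.34, 7.07 and 7.30 in WT_stressed and 4.29, 3.34 and 3.95 in IPT_stressed, so that the lowest value within IPT_stressed belonged to replicate 2 and the highest within WT_stressed to replicate 3. With this difference as a covariate, the stress effect in PSARK::IPT was 2.61 for CPS4 (limma adjusted p = 0.165), 1.84 for KSL7, 1.41 for CYP99A2 and 1.10 for CYP99A3. In wild type it was then 0.51 for CYP99A2, and that of CYP99A3 changed sign to -0.22.

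Between the labelled genotypes, 0 of the 8 genes passed when watered, where 19.2% of probe sets did, and 0 had an unadjusted limma p under 0.05, which 33.8% had. The watered arrays did not overlap for KSL5, higher in PSARK::IPT as for 18.2% of probe sets, and for KSL7, lower as for 24.3% but at background. Under stress 3 of 8 passed, fewer in proportion than the 46.1% of all probe sets that did, so the count sets these genes apart in no way. The same 3 had an unadjusted p under 0.05, against 54.9%. The stressed arrays did not overlap for KSL5 alone, higher in PSARK::IPT as for 21.0% of probe sets, and no gene was lower on every array, as for 34.4%. KSL5 and CPS4 lay at background in WT_stressed, and were higher in IPT_stressed by at least 1.29-fold (fitted log2 difference 0.68, SE 0.20, limma adjusted p = 0.0173) and at least 1.80-fold (1.93, SE 0.61, adjusted p = 0.0238). CYP99A3 was higher by 0.96 (SE 0.32, adjusted p = 0.0294). The arrays of the groups overlapped for CPS4, and with the GAPDH covariate 0 of the 8 passed, against 0.226% of probe sets. The difference for CPS4 was then 3.78 with a larger SE of 1.34, that for CYP99A3 2.28 (SE 0.63) and that for KSL5 0.52 (SE 0.48). Without WT_stressed replicate 2 none passed, against 39.99% of probe sets. Without WT_stressed replicate 1 or IPT_stressed replicate 1 or 3 KSL5 alone did, against 42.2%, 34.6% and 33.9%. Without IPT_stressed replicate 2 the genes that passed were CPS4, KSL7, CYP99A2 and CYP99A3, against 37.7% of probe sets. When watered, KSL10 passed without WT_watered replicate 1, against 13.8% of probe sets, and was at background in both genotypes.

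Within the chromosome 4 cluster the gene order in RefSeq is CPS4, CYP99A3, MAS, KSL4 and CYP99A2, with other genes between. MAS, a dehydrogenase that makes momilactone A, read 2.67, 2.91 and 2.59 in WT_watered, 2.79, 3.17 and 4.69 in WT_stressed, 2.32, 2.62 and 2.45 in IPT_watered, and 4.02, 2.71 and 3.69 in IPT_stressed. It was thus highest on the same 3 arrays as CPS4, and lay at background in all groups but IPT_stressed. Of the 5 cluster genes 0 passed in wild type, in PSARK::IPT or over both, against 0.420%, 0.177% and 0.409% of probe sets. Their median stress effect was 0.83 in wild type and 1.20 in PSARK::IPT.

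The chromosome 2 cluster was less even. Its 8 genes on the array were CYP76M5, CYP76M8, KSL7, CYP71Z6, CYP71Z7, CPS2, KSL5 and CYP76M6. For the stress effect 0 passed in wild type, in PSARK::IPT or over both, against 0.420%, 0.177% and 0.409% of probe sets. The median stress effect was 0.45 in wild type and 0.36 in PSARK::IPT. Between the labelled genotypes 1 of the 8 passed when watered, against 19.2% of probe sets, and 3 under stress, against 46.1%. CYP71Z7, a P450 that oxidises ent-cassadiene, had the widest range: it read 3.05, 2.90 and 3.62 in WT_watered, 3.21, 3.93 and 8.12 in WT_stressed, 3.02, 3.26 and 2.97 in IPT_watered, and 7.47, 4.13 and 7.72 in IPT_stressed. Its stress effect was 3.36 (SE 1.13), at least 9.79-fold, in PSARK::IPT (limma adjusted p = 0.385) and 1.90 (SE 1.13) in wild type (adjusted p = 0.363). CYP76M5, another P450 of the cluster, lay at background in all 4 groups. CYP76M6 had stress effects of 0.05 in wild type and 0.16 in PSARK::IPT. Its other, dimmer probe set gave 0.31 and 1.12 and did not pass in PSARK::IPT (limma adjusted p = 0.310). KSL7 and CYP71Z7 shared the 3 highest arrays of CPS4, and the other 6 genes of the cluster did not.

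**Figure D4:**
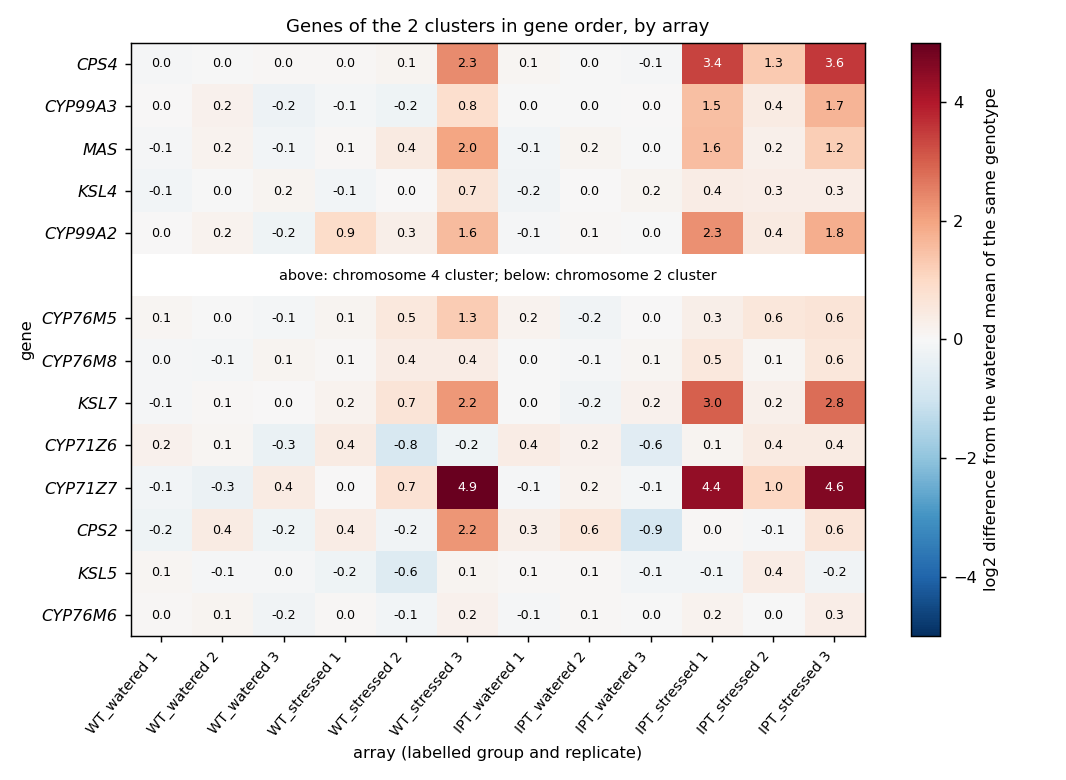
Log2 difference of each gene of the chromosome 4 and chromosome 2 clusters on each array from the mean of the watered arrays of the same labelled genotype, with genes in chromosome order. The columns of WT_stressed replicate 3 and IPT_stressed replicates 1 and 3 are the warmest, led by CYP71Z7, CPS4 and KSL7, while KSL4, CYP71Z6, KSL5 and CYP76M6 stay pale.

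Outside the clusters, CYP701A8, a P450 that acts on ent-type skeletons, had stress effects of 0.37 in wild type and 0.95 in PSARK::IPT and did not pass. Of 6 gibberellin genes, which draw on the same precursor, 0 passed in wild type or PSARK::IPT, against 0.420% and 0.177% of probe sets. Their median stress effect was -0.43 in wild type and -0.22 in PSARK::IPT. KS1, the kaurene synthase of gibberellin synthesis, had effects of -0.26 and -0.64, GA20OX3, a late gibberellin oxidase, of -0.65 and -0.71, and KO2, a kaurene oxidase, of -0.46 and 0.12. For the plastid precursor pathway the list's names found 2 genes, DXR and MCS, with effects of -0.36 and -0.08 in wild type and -0.48 and -0.38 in PSARK::IPT, and neither passed. The gene listed as DXPS, the usual short name of deoxyxylulose phosphate synthase, the entry enzyme of this pathway, was not among the names searched and came up through its likeness to CYP99A2, so its values were seen first. Its stress effects were of the opposite sign, 0.51 (SE 0.43) in wild type and 1.13 (SE 0.43) in PSARK::IPT, with limma adjusted p-values of 0.523 and 0.486.

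Of 11 genes known to regulate phytoalexin or defence genes, 1 passed in PSARK::IPT and 0 in wild type, against 0.177% and 0.420% of probe sets. It was NH3, a rice relative of the Arabidopsis defence regulator NPR1, which rose by 1.33 in PSARK::IPT (SE 0.19, limma adjusted p = 0.0163) against -0.09 in wild type. Its mean went from 5.85 to 7.18 in PSARK::IPT and from 7.88 to 7.78 in wild type. The difference of the stress effects, PSARK::IPT minus wild type, was 1.42 (SE 0.27, limma adjusted p = 0.201) and did not pass. The dimmer NH3 probe sets did not pass. Their effects were 1.23, 1.23 and 0.58 in PSARK::IPT and -0.0016, 0.99 and 0.35 in wild type, so the contrast between genotypes depended on the probe set. WRKY76, a transcription factor of the defence response, had stress effects of 1.71 in wild type and 2.71 in PSARK::IPT, and MAPK5, a stress-activated kinase, of 0.58 and 0.80. None of the 11 had its 3 highest values on the 3 high arrays of CPS4.

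Of 11 pathogenesis-related genes, 1 passed in PSARK::IPT and 0 in wild type, against 0.177% and 0.420% of probe sets. It was the chitinase gene Cht11, which rose by 2.37 in PSARK::IPT (SE 0.39, limma adjusted p = 0.0426) and differed by 1.69 in wild type (adjusted p = 0.0743). Cht2 had stress effects of 1.40 and 2.37 and Cht1 of 1.89 and 2.03. The median over the 11 was 1.0 in wild type and 1.02 in PSARK::IPT. The 3 high arrays of CPS4 were also the highest for 5 of these 11, PBZ1, Cht1, Cht2, Cht3 and Cht4, against 2.59% of all genes. Of these, Cht4 lay at background in all 4 groups and Cht3 in both wild-type groups. The same arrays were highest for 0 of the 6 gibberellin genes and 0 genes of the leaf, panicle, anther and root marker lists.

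Among 1563 genes with a name and a mean of at least 5, those whose values ran most like CPS4 over the 12 arrays were AMT3-2 with a Pearson correlation of 0.951, PSK4 with 0.946, CML4 with 0.939, CAD with 0.929 and HSP17.9B with 0.926. For CYP99A2 they were HSP17.9B with 0.935, PSK4 with 0.914, CAD with 0.899, AMT3-2 with 0.896 and DXPS with 0.886. Each of these genes had its 3 highest values on the 3 high arrays of CPS4, and the correlations share those 12 arrays, with few high and many low values. Spearman's rho with CPS4 was between 0.601 for CAD and 0.895 for PSK4 and CML4. With the 2 arrays farthest from the median of CPS4 left out, Pearson's correlation with CPS4 ran from 0.754 for CML4 to 0.903 for AMT3-2.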

How the data were processed

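Labelled RNA of rice flag leaves was measured on 12 Affymetrix arrays, 3 per labelled group. The authors deposited log2 values and the submitters' processing notes name RMA, which corrects background, normalises arrays and summarises probes. The version of RMA is not given in the sources used here. They were used as deposited. Of 57381 probe sets, 123 controls and 64 reporters were kept out, and 57194 were tested. Names came from the array annotation through the RefSeq table of assembly ASM3414082v1, used for names and gene order only. It tied 22436 tested probe sets to 1 gene, 95 to several and 34663 to none listed.

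A linear model with 1 mean per group and a shared spread was fitted over the 12 arrays in limma 3.58.1 (R 4.3.3; lmFit, eBayes), after the code had been tested on simulated data. Adjusted p-values are Benjamini-Hochberg over all tested probe sets, with a threshold of 0.05. With 3 arrays a group, no exact two-sided permutation p can fall below 0.1, and array number sets the precision. Background was set by 64 reporters and 42 bacterial controls. Where 1 group lay there, the fold is that of the other group's mean over that level. It is given as at least because the lower group lies under the level, and it leaves out the spread between arrays.

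The genes and lists were chosen with earlier results of these data known. All members are named, and of each other list up to 3 genes with the smallest p in the pooled water effect, plus any gene that passed; genes sharing the high arrays were named after their values were seen. No RAP locus numbers (0) matched the tables, so lists rest on names, and 6 list genes were dropped for an alias of another gene. Alternatives covered scaling, variance model, array weights, a filter on dim probe sets, the replicate number, the GAPDH difference and left-out arrays.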

Additional observations from a re-analysis of the deposited data

How the results depend on the processing

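The counts of the 8 genes that passed moved by over 1.5 times in 12 repeats and by less in 106. For the stress effect in PSARK::IPT, array weights gave 5 genes in place of 0, against 8.69% of probe sets. Leaving out single arrays gave 0 to 4 there, against 0.0542% to 1.43% of probe sets. It gave 0 to 4 for the pooled water effect, against 0.112% to 1.85% of probe sets. For the genotype effect it gave 0 to 1 when watered, against 10.2% to 24.8%, and 0 to 4 under stress, against 33.9% to 48.2%. The count for the genotype effect under stress, 3 with all arrays, was 0 with a minimum mean of 5, the GAPDH covariate or only the 6 arrays compared. The shares of probe sets that passed were then 49.9%, 0.226% and 36.6%, against 46.1% with all arrays. The minimum mean of 5 left only CPS2 of the 8 genes in the test. For the changes of single genes, 554 repeats kept direction and side of the threshold, 15 passed where the main result did not, 17 no longer passed and 20 changed sign. The causes were not tested.

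In wild type, the stress effect of CYP99A3 was -0.22 with the GAPDH covariate and ran from -0.15 to 0.37 over left-out arrays. In PSARK::IPT, that of KSL7 was -0.17 by its other probe set, that of KSL5 -0.082 with array weights and -0.15 to 0.13 over left-out arrays, and that of CPS2 -0.23 to 0.48. The difference of the stress effects was -0.67 for KSL7 by its other probe set and ran from -1.11 to 0.092 for CPS2. The genotype effect when watered was -0.053 for CPS2 after quantile normalization and -0.064 to 0.64 over left-out arrays, 0.039 for CYP99A3 and 0.0075 for CYP99A2 with equal array medians, and 0.96 and 0.99 with the GAPDH covariate. For CYP99A3 it ran from -0.18 to 0.053. Under stress the genotype effect was -0.62 for KSL7 by its other probe set and 1.08 for CPS2 with the GAPDH covariate, and ran from -0.89 to 0.31 for CPS2.

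Same-numbered arrays did not pair: their deviations from the group means correlated between -0.10 and 0.19. With the replicate number as a block, 0 genes passed in every comparison but the genotype effect under stress, where 3 did, so the block changed no count of the 8 genes. It gave 60 probe sets in place of 240 for wild type, 287 in place of 101 for PSARK::IPT and 550 in place of 234 for the pooled effect.

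Over all probe sets, calls for wild type were 848 with equal medians, 429 after quantile normalization, 111 with trend and robust options, 18 with array weights, 20 with the minimum mean, 25 with the GAPDH covariate and 2 with 6 arrays. For PSARK::IPT they were 56 after quantile normalization, 4970 with array weights and 3 with the minimum mean. The pooled effect gave 448, 82 and 75 with array weights, the minimum mean and the GAPDH covariate. The difference gave 5 in place of 0 with trend and robust options. The genotype effect when watered, 10981, became 16912 with array weights, 4248 with the minimum mean and 39 with the GAPDH covariate. Under stress, 26357 became 15409 after quantile normalization, 7634 with the minimum mean and 129 with the GAPDH covariate.

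Of the 8 genes, 5, 5, 4 and 2 lay at background in WT_watered, WT_stressed, IPT_watered and IPT_stressed. With the median of the foreign probe sets as the level these were 2, 2, 2 and 1, and with bacterial controls alone WT_stressed held 3, without KSL5 and KSL7.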
